A study of Mus musculus with 30 samples.

Results

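Acetylation of lysine 27 of histone H3 (H3K27ac) was compared between CK1750 and Tnm2, a pair of lines grown from mouse lung adenocarcinomas, each kept in the solvent DMSO without inhibitor. The members were chosen by the sample labels alone, as the H3K27ac samples with DMSO: 3 samples of CK1750 (replicate 1 sequenced in 2 runs, and replicate 2) and 2 samples of Tnm2 (replicates 1 and 2), which makes 5 of the 30 samples of the series. Each group had 1 deposited list of peaks, 27367 for CK1750 and 30641 for Tnm2, together 58008 of the 101403 peaks of the 4 H3K27ac lists. The other H3K27ac lists came from the same lines given UNC0638 at 1 µM, which blocks the H3K9 methyltransferases G9a and Glp, and were used here only to ask whether a difference between the lines was found again. Both lines were cultured in DMEM with fetal bovine serum, and CK1750 was described by the study as a line with properties of tumour-propagating cells. Each group is a single established line, so a difference between the lists is a difference between these lines and not between classes of tumour.

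The labels tie all samples of a group to 1 merged list. How many biological replicates stand behind a list, and what served as its control, could not be settled from the sources used here. No spread between replicates exists, no difference could be tested, and no P value is given. The score of a peak is -10 log10 of the P value of the authors' peak caller. It rises with sequencing depth, which is unknown, so scores were turned into percentile ranks, the percent of peaks of the same list with a lower score. Many of the strongest peaks shared a score of 3100 (558 in CK1750 and 169 in Tnm2), which put them at ranks of 98.8 and 99.6. Each interval is a 95% Wilson interval, which holds counting error and nothing else. With 1 list a line, a difference between the lines and a difference in depth or quality between the pooled libraries cannot be told apart.

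H3K27ac is placed by the acetyltransferases p300 and CBP on nucleosomes next to active promoters and enhancers. Promoters tend to carry the mark in many cell types, whereas enhancers, often far from genes and grouped in clusters, carry it in a cell-type-dependent way. In the lung, NKX2-1 and the FOXA factors hold the identity of the distal epithelium, and SOX2 is a factor of the conducting airway and of foregut progenitors. Lung adenocarcinomas can keep this identity, take on gastric or gut genes, or turn towards mesenchymal or embryonic programmes.

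Of 25 factors of the lung lineage 16 had promoter peaks in both lines, 4 in a single line and 5 in neither. In both lists peaks lay at the promoters of Nkx2-1, Foxa1, Foxa2 and Gata6, all above the 90th percentile of their list. CK1750 alone had promoter peaks at Sox2, Hey1 and Fst, and Tnm2 alone had them at Cldn18, Foxp2, Il33 and Egfr. Some genes with peaks in both lists had very different ranks, among them Mmp14 and Muc1 with the higher rank in CK1750 and Cdh17 and Cd53 with the higher rank in Tnm2. Among peaks found in a single list, introns were the commonest place (46.0% in CK1750 and 51.4% in Tnm2), with strong examples in Nrp2 for CK1750 and Tns1 for Tnm2. Introns held 27.6% and 26.9% of the peaks shared by the lists.

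Sequences of 4 places that turned out to be marked in 1 line only are given first. They are reference bases of GRCm38.p6 (RefSeq), written 5′ to 3′, and capitals mark letters of the 12 motifs searched. The first pair are the 250 bases before a transcription start site (TSS). The Sox2 window, chr3:34649745-34649994 on the plus strand, lay under a CK1750 peak that scored 117.63. A CK1750 peak scored 1426.76 began just downstream of the window, over the gene. The start site of this window came from a separate set of promoters. The window therefore does not adjoin the Sox2 start used elsewhere here, chr3:34650405, but lies upstream of it. The Cldn18 window, chr9:99710064-99710313 on the minus strand, lay under a Tnm2 peak scored 958.26. The last pair are the central 300 bases of intron peaks of Nrp2, chr1:62767504-62767803 in CK1750 (score 1492.95), and of Tns1, chr1:74030622-74030921 in Tnm2 (score 1248.49), both read on the plus strand. Each is the strongest intron peak of its gene with no peak of the other list within 1 kb.
Sox2 promoter: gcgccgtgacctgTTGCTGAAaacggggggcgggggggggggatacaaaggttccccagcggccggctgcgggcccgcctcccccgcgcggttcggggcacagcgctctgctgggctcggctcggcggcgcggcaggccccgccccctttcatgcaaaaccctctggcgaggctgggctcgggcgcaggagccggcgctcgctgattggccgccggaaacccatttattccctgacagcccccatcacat
Cldn18 promoter: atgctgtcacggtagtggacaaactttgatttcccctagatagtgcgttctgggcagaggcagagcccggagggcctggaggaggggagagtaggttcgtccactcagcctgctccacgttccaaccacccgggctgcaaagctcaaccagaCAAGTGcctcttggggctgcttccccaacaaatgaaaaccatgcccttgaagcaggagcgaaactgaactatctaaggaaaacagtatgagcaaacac
Nrp2 intron peak: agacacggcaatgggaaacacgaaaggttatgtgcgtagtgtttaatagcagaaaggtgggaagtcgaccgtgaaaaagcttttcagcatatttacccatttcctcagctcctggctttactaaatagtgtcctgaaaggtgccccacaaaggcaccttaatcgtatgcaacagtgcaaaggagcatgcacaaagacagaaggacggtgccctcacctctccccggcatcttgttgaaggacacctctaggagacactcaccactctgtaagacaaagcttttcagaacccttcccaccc
Tns1 intron peak: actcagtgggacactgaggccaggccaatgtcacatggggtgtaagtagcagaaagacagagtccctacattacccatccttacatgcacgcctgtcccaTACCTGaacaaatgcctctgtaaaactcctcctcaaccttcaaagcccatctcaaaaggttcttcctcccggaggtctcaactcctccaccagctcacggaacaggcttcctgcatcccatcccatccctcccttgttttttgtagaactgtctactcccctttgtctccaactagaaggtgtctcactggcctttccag
The Cldn18 window held the letters CAAGTG of NKX2-1 on one of the strands, which 11.6% of 32851 promoter windows of the same length hold. The Sox2 window held the C/EBP letters TTGCNNAA, as do 9.56% of those windows. The Tns1 window held CAGGTA of ZEB factors, found in the central 300 bases of 12.6% of all 33818 distal peaks, and the Nrp2 window held none of the 12 motifs.

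The first comparison asked which peaks were found in a single line. Of the CK1750 peaks, 7221 (26.4%, interval 25.9 to 26.9%) overlapped no Tnm2 peak, and of the Tnm2 peaks 10692 (34.9%, interval 34.4 to 35.4%) overlapped no CK1750 peak. With both lists cut to the same length by score, the counts were 7875 and 8275, so most of the gap depended on list length. The line-only peaks of the full lists were weak and narrow. Their median score was 69.34 in CK1750 and 75.46 in Tnm2, against 247.87 and 237.84 for shared peaks. Their median width was 548 bp and 583 bp, against 1012 bp and 1059 bp for shared peaks. A strong peak was thus almost never line-only: among peaks scored at least 500, no counterpart was found for 48 of 6400 in CK1750 (0.75%) and 56 of 5522 in Tnm2 (1.01%). Between 50 and 100 the shares were 53.9% and 64.9%.

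Promoters were shared far more often than other places. Of CK1750 peaks within 1 kb of a TSS 12.9% were line-only, against 37.4% of those in introns and 36.3% of those between genes. In Tnm2 the shares were 12.4%, 50.6% and 47.7%. Promoter peaks therefore made up 21.7% of the CK1750-only peaks and 14% of the Tnm2-only peaks, while they were 52.2% and 53% of the shared peaks.

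**Figure D1:**
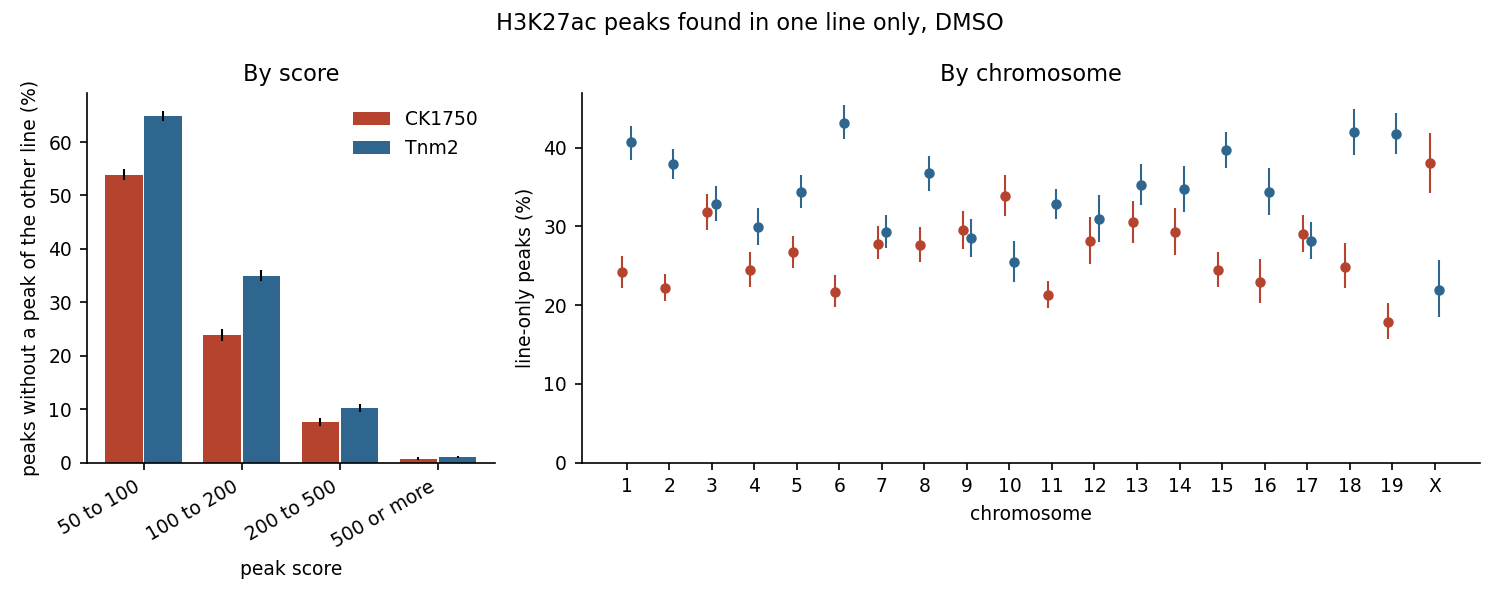
Percent of peaks without an overlapping peak of the other line, by peak score (left, bars from 0) and by chromosome (right, points, Y left out), for CK1750 and Tnm2 with DMSO, with Wilson 95% intervals as lines. The share fell from 53.9% and 64.9% at scores of 50 to 100 to 0.75% and 1.01% at 500 or more, and the X chromosome was the reverse of most autosomes, with 38% in CK1750 and 21.9% in Tnm2.

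The share of line-only peaks was not even along the genome. On the X chromosome 230 of 605 CK1750 peaks were CK1750-only (38%, interval 34.2 to 41.9%) and 109 of 498 Tnm2 peaks were Tnm2-only (21.9%, interval 18.5 to 25.7%). Chromosome 10 had the same order, with 33.9% and 25.5%. Chromosomes 19 and 6 had the opposite order, with 17.9% against 41.8% on chromosome 19 and 21.7% against 43.2% on chromosome 6. At Xist, the RNA gene that coats the inactive X of female cells, Tnm2 had a promoter peak with DMSO (score 260.27) and with UNC0638 (66.44), and CK1750 had none with either. Of the genes of the Y chromosome examined (Ddx3y, Kdm5d, Eif2s3y, Uty, Zfy1, Zfy2 and Sry) none had a promoter peak in either list. The sex of the animals behind the lines was not given by the labels, and copy number of the chromosomes was not tested.

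Line-only peaks were sought again in the lists of cells given UNC0638, which come from other samples. Of the CK1750-only peaks 43.8% overlapped a CK1750 peak with UNC0638 and 8.75% a Tnm2 peak with UNC0638. Of the Tnm2-only peaks 25.7% overlapped a Tnm2 peak with UNC0638, and 22.6% a CK1750 peak. For peaks scored 200 or more the lines were found again more clearly, with 88.3% in the same line and 13.7% in the other for CK1750 (454 peaks), and 81.7% and 39.5% for Tnm2 (709 peaks). Peaks shared by the DMSO lists gave 90.5% in the same line and 74.3% in the other for CK1750, and 73.6% and 90.6% for Tnm2. Shared Tnm2 peaks were thus found more often in the CK1750 list with UNC0638 than in that of Tnm2. The UNC0638 lists differ in size, 24601 peaks for CK1750 and 18794 for Tnm2.

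The 20 strongest line-only peaks with no peak of the other list within 1 kb, 10 a line, were then located. In CK1750 they lay at the promoter of Pde8a, a cAMP phosphodiesterase (chr7:81212367-81214515, score 2560.16, percentile 96.7), in an intron of Cradd, an adaptor of caspase signalling (chr10:95264206-95266801, score 1639.89), in 3 neighbouring peaks at and behind Sox2, in an intron of Nrp2, a receptor for semaphorins and VEGF (chr1:62766591-62768716, score 1492.95), and at the promoters of Nexmif and Auts2, genes linked to brain development. The remaining CK1750 peaks lay in an intron of Plekha2 and between genes near Mocs2. In Tnm2 the strongest lay in introns of Ppfibp2, a liprin of cell adhesion sites (chr7:107664022-107667413, score 1438.96, percentile 95.9), and of Tns1, tensin 1, which ties integrins to actin (chr1:74028686-74032857, score 1248.49). Further Tnm2 peaks were at the promoters of Sspn, Cldn18, H6pd and Zbtb7b, near Dlx1, and in introns of Rxra and Rgl1. The last of the Tnm2 peaks, at Sfi1, was 10891 bp wide and absent from the Tnm2 list with UNC0638. The other 19 were found in the same line with UNC0638, and 3 of the 20 (near Mocs2, and at Rxra and Zbtb7b) also in the other line.

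The next comparison asked which genes had a promoter peak, within 1 kb of any annotated TSS, in a single line. Among 21951 protein-coding genes 9633 had one in both lists (43.9% of genes), 819 in CK1750 only (3.73%), 602 in Tnm2 only (2.74%) and 10897 in neither (49.6%). The median score of the promoter peak was 92.69 and 92.38 in these groups, against 622.4 for genes with peaks in both, so most line-only promoters were weak peaks. With UNC0638, 460 of the 819 were again CK1750-only (56.2%), and 130 of the 602 were again Tnm2-only (21.6%), while 104 of the 602 became CK1750-only. Genes marked in both DMSO lists moved the same way: of the 9633, 1311 became CK1750-only with UNC0638 and 73 became Tnm2-only. A CK1750-only status with UNC0638 was thus common among genes without a line-only promoter in DMSO. Of the genes scored 200 or more, 106 of 132 and 56 of 92 kept their status.

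Sox2 led the genes of CK1750 that had no Tnm2 peak in the gene or 10 kb around it. Its promoter peak scored 1426.76 (percentile 92.0), 5 CK1750 peaks and 0 Tnm2 peaks lay within 50 kb of the gene, and the score with UNC0638 was 2796.27 in CK1750 with none in Tnm2. Sox21, a relative of Sox2, was also CK1750-only (455.52, percentile 74.9). Behind Sox2 came Nexmif (1341.3), Zfp503 (782.41), a zinc-finger repressor, Zic5 (740.27), a developmental zinc-finger factor, Msrb3 (525.57), a methionine sulfoxide reductase, Mid2 (509.65), a ubiquitin ligase, Rassf9 (503.21), Cpne8 (470.37) and Mme (459.8), the membrane peptidase neprilysin. All 10 were again CK1750-only with UNC0638.

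The corresponding Tnm2 genes were Uggt2 (775.66, percentile 89.4), a sensor of misfolded glycoproteins, Tbx15 (703.29), a T-box factor, Cpq (559.43), Fut4 (518.02), a fucosyltransferase that makes the Lewis X antigen, Cyp2c65 (501.64), a cytochrome P450, Ntpcr (492.66), Wipf1 (490.66), which binds the actin regulator WASP, Bend7 (489.28), Tut4 (489.0), a uridylyltransferase of RNAs, and Neurl3 (468.11). With UNC0638, 6 of these 10 were again Tnm2-only, and Tbx15, Cpq, Ntpcr and Neurl3 had promoter peaks in both lines.

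Genes with promoter peaks in both lists were compared by rank. The median difference in percentile rank, CK1750 minus Tnm2, was 0.24 points over 9633 genes, and 90% of genes lay between -19.8 and 26.6 points. A difference of 50 points or more was found for 71 genes higher in CK1750 (0.737% of these genes) and 45 higher in Tnm2 (0.467%). Genes used as references did not all keep their place: of 13 with peaks in both lists, Gapdh had ranks of 80.2 and 52.1 and Pgk1, on the X chromosome, of 78.7 and 46.4, whereas Actb, Ppia, Tbp and Ywhaz differed by less than 2 points.

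The genes ranked higher in CK1750 included Pik3r3, a regulatory subunit of PI3 kinase (ranks 95 and 13.8), Enah, which extends actin filaments (85.7 and 10.9), Lad1, ladinin of the basement membrane zone (91.8 and 20.4), and Zbtb10 (98.8 and 29.3), whose Tnm2 peak had a near-identical copy in the genome. Hist1h4i, a histone H4 gene (84.3 and 2.9), Aspa (82.0 and 7.4), Shkbp1 (86.5 and 13.1), Parp8 (76.3 and 7.2), and Smc1a and Ribc1, which share a promoter peak on the X chromosome (79.5 and 7.3), made up the rest of the 10. With UNC0638 the Tnm2 list had no promoter peak at 8 of these 10, and CK1750 kept all of them. The genes ranked higher in Tnm2 were led by Cd53, a tetraspanin of leukocytes (7.3 and 90.9), Soat2, which esterifies cholesterol (4.4 and 86.5), and Cfb, complement factor B (13.0 and 90.4). The zinc-finger genes Zfp951, Zfp882 and Zfp709, Prkar1b, a regulatory subunit of protein kinase A, Pde4c, BC025446 and Mall followed, with differences of -67.5 to -79.7 points, and the CK1750 peak of Zfp951 likewise had a copy. The lower-ranked peaks of these 20 genes all scored between 50.05 and 83.23, in lists that start at a score of 50. Cd53 had strong promoter peaks in both lines with UNC0638 (scores 695.98 in CK1750 and 397.01 in Tnm2).

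Promoters were then read by gene lists for lineages and pathways. Of 374 listed genes 142 had promoter peaks in both lists, 20 in CK1750 only (5.35%) and 19 in Tnm2 only (5.08%), beside 43.9%, 3.73% and 2.74% of all protein-coding genes. With UNC0638, 11 of the 20 and 6 of the 19 had the same status again.

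**Figure D2:**
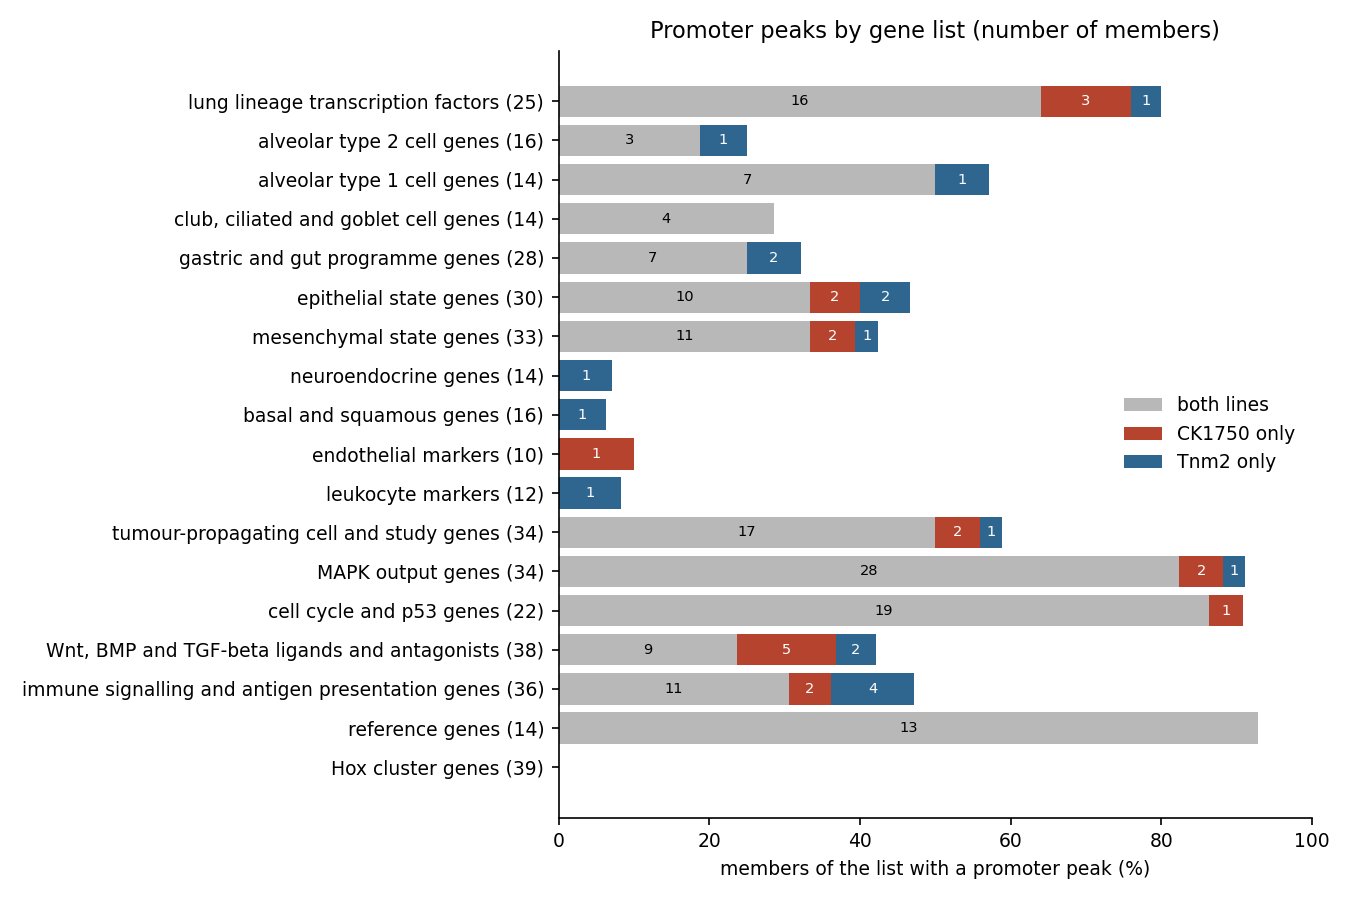
Percent of the members of each gene list with a promoter peak in both lines (grey), in CK1750 only (red) and in Tnm2 only (blue), with the number of genes in each bar and the list size in parentheses. Shared promoters made up most of the bars of the MAPK output (28 of 34), cell cycle (19 of 22) and lung factor lists (16 of 25), and no Hox gene had a promoter peak.

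Factors of the lung lineage were shared at 16 of 25 genes (64%), beside 43.9% of all protein-coding genes. Nkx2-1 had ranks of 90.6 in CK1750 and 96.3 in Tnm2, Foxa1 of 94.2 and 95.6, Foxa2 of 97.6 and 96.9. Gata6 scored 3100 in CK1750 and 3219.44 in Tnm2. Hmga2, a chromatin protein of embryonic tissue and of progressed tumours, ranked 95.5 and 95. The 3 CK1750-only factors were Sox2 and, with weak peaks, Sox11 (69.63) and Tbx2 (68.96). Foxp2, a repressor of the distal lung epithelium, was the Tnm2-only factor (223.01, percentile 64.2), with 3 Tnm2 peaks and 0 CK1750 peaks within 50 kb.

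Of the 16 alveolar type 2 genes 12 had no promoter peak in either list, as had 49.6% of all protein-coding genes, and the 12 included the surfactant genes Sftpc, Sftpb, Sftpa1 and Sftpd. Abca3, the lipid transporter of lamellar bodies, ranked 80.3 and 86.0. Muc1, a membrane mucin, ranked 68.0 in CK1750 and 8.1 in Tnm2, and Il33, an alarmin, was Tnm2-only (200.18). Of 14 club, ciliated and goblet genes 4 had peaks in both lists, and the club cell gene Scgb1a1 was weak in both (ranks 4.6 and 11.3). A large cluster of distal peaks had Scgb1a1 as its nearest gene, with 25.33 kb covered in CK1750 and 27.01 kb in Tnm2.

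Cldn18, a claudin whose start sites differ between lung and stomach, showed the largest score of a Tnm2-only promoter among the listed genes. The Tnm2 peak scored 958.26 (percentile 92.1) and covered the downstream start sites, and no peak of any of the 4 H3K27ac lists covered the upstream one, at -7.26 kb. Tnm2 had further peaks in the 5 kb on either side of the marked start sites, and CK1750 had none there. Both lists had peaks from about 6 to 10 kb downstream, with top scores of 720.34 and 957.27. With UNC0638 the Tnm2 peak at the start sites scored 491.69 and CK1750 again had none.

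Of the 14 alveolar type 1 genes 7 were shared, 1 was Tnm2-only and 6 had no peak. The Tnm2-only gene was Cldn18, marked at its downstream start sites alone. Which of its start sites serves the lung and which the stomach was not examined, so Cldn18 is counted here by list membership only. Of the shared genes Aqp5, a water channel, had ranks of 93.0 and 72.1 and Clic5 of 55.9 and 14. Genes of the gastric and gut programme had no promoter peak at 19 of 28, beside 49.6% of all genes, including Hnf4a, Pdx1 and Gata4. Cdx2 and Onecut2, factors of gut and liver development, were marked in both lists with ranks of 83.6 to 98.4. Of the 2 Tnm2-only genes of this list, Vil1, the villin of intestinal microvilli, scored 151.36 and was again Tnm2-only with UNC0638. Cdh17, the cadherin of gut epithelium, ranked 6.5 in CK1750 and 67.8 in Tnm2.

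Of 30 epithelial genes 10 were shared and 16 had no promoter peak in either list, and of 33 mesenchymal genes 11 were shared and 19 had none, beside 43.9% shared among all protein-coding genes. Krt8, Krt18, Krt19 and Cdh1, and likewise Vim, Zeb1, Zeb2, Fn1 and Cdh2, had promoter peaks in both, and Epcam, Cldn4, Snai1, Twist1 and Thy1 had none in either. Of the epithelial genes Cldn6, a claudin of embryonic epithelium (315.04), and Cgn (64.33) were CK1750-only, and Krt7 (162.0) and Marveld2, tricellulin (195.01), were Tnm2-only. With a promoter window of 2.5 kb Cldn6, Cgn and Krt7 had peaks in both lists, with rank differences of 2.6, -4.8 and -33.5 points, and Marveld2 alone kept its status. Of the mesenchymal genes Col5a1 (200.13) and Loxl2 (103.38) were CK1750-only and Col6a1 (76.23) was Tnm2-only, and the CK1750 peak of Loxl2 had a near-identical copy elsewhere in the genome. Col5a1 had peaks in both lists with the 2.5 kb window, at ranks of 57.0 and 2.9.

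**Figure D3:**
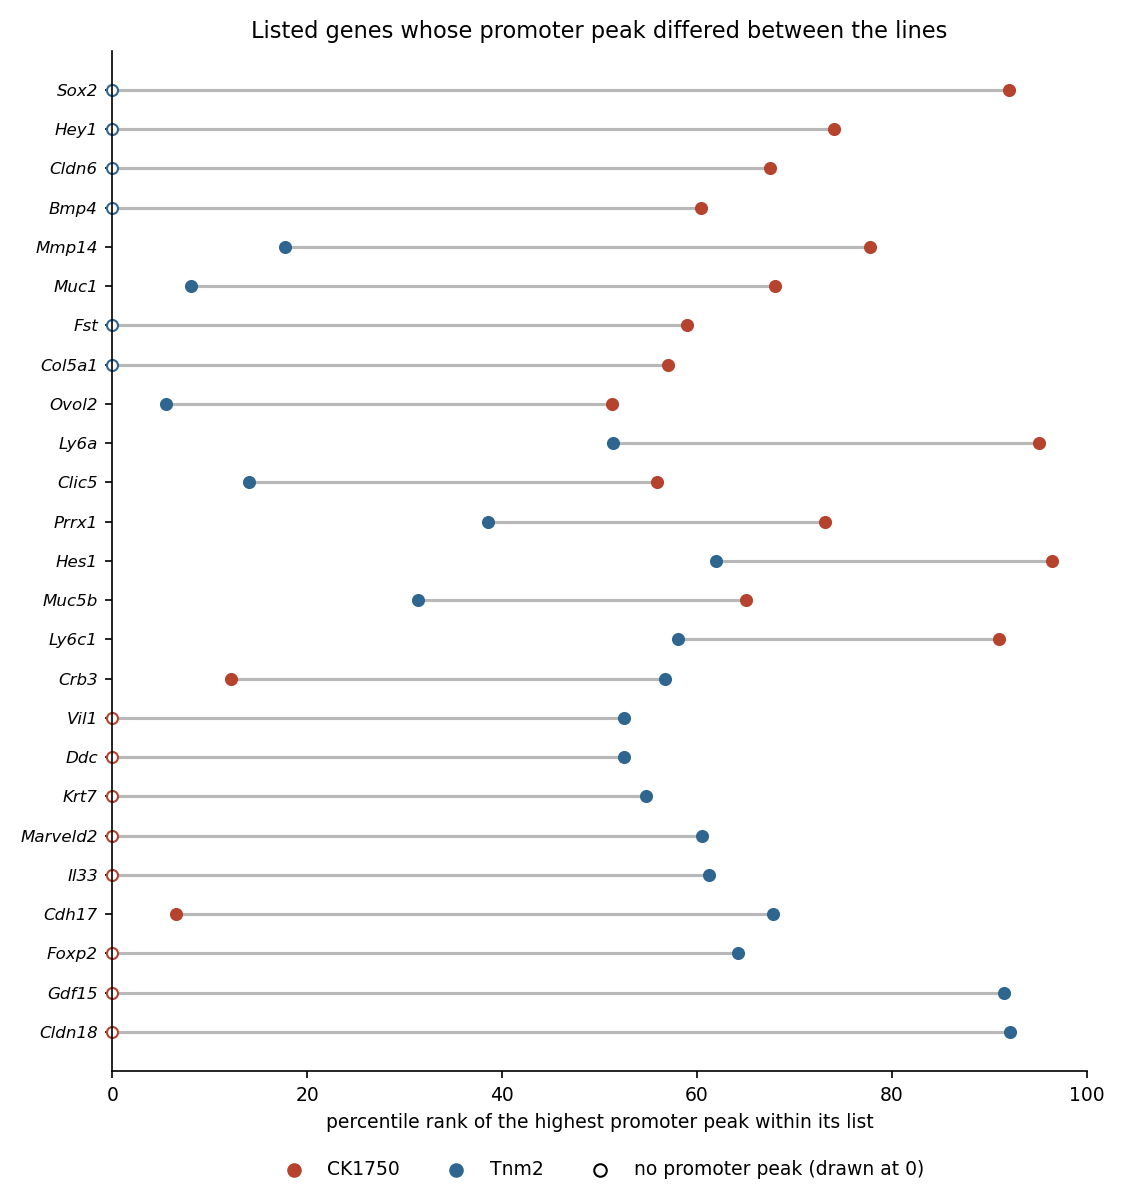
Percentile rank of the highest promoter peak within its list (x axis, 0 to 100) for 25 listed genes that had a promoter peak in 1 line only or differed by 30 points or more, and reached the 50th percentile, with CK1750 in red and Tnm2 in blue. Open circles at 0 stand for no promoter peak, as for Sox2 in Tnm2 and Cldn18 in CK1750, whose filled circles lie at 92.0 and 92.1.

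In the list of tumour-propagating cell genes and genes of the study, some of them of the Notch pathway, 17 of 34 were shared. A further 2 were CK1750-only (5.88%) and 1 was Tnm2-only (2.94%). The shares of all protein-coding genes were 43.9% shared, 3.73% CK1750-only and 2.74% Tnm2-only. Hey1 and Hes1 are repressors that Notch signalling switches on. Hey1 was CK1750-only (436.82, percentile 74.1) and again so with UNC0638, with 1 CK1750 peak and 0 Tnm2 peaks within 50 kb. Hes1 ranked 96.4 in CK1750 and 61.9 in Tnm2, and the ligand gene Dll1 ranked 85.5 and 62.3. The ligand gene Jag1 and the receptor gene Notch2 were close in rank, at 97.0 and 96.3, and at 94.4 and 85.8. Ly6a, which encodes the surface antigen Sca-1, ranked 95.1 and 51.4, and its neighbours Ly6c1 and Ly6e ranked 91.0 and 58.0, and 77.8 and 56.2. A single CK1750 peak covered the Ly6a start sites, from -2.81 to 1.7 kb, whereas Tnm2 had a peak from -2.25 to -0.68 kb and a very weak one (51.12) at the start sites. The Ly6 genes are a family of similar sequence: the highest Tnm2 peak of Ly6a and those of Ly6c1 in both lists had near-identical copies, so their levels are uncertain.

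Mmp14, a membrane-bound matrix protease, ranked 77.8 in CK1750 and 17.7 in Tnm2. The stem cell antigens Cd24a, Cd44, Itga6 and Itgb4 differed by at most 7.3 points. Lgr6 (68.83) was Tnm2-only and Wnt7b (51.97) CK1750-only, both near the calling cutoff. With the 2.5 kb window Lgr6 had peaks in both lists, at ranks of 6.6 and 77.7. At Alcam, an adhesion molecule chosen here after its values were seen, both lines had a promoter peak, but Tnm2 had 17 peaks within 50 kb of the gene and CK1750 had 2. Over the 17 genes of this list with peaks in both lists the median difference was 2.4 points, and over all 9633 genes it was 0.24 points.

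Of 38 genes of Wnt, BMP, TGF-beta, Hedgehog and FGF ligands, antagonists and partners 5 were CK1750-only (13.2%) and 2 Tnm2-only (5.26%). Over all protein-coding genes these shares were 3.73% and 2.74%. Bmp4 (229.4, percentile 60.4), which patterns the lung bud, and Fst, follistatin (216.42), which binds activins, were again CK1750-only with UNC0638. With the 2.5 kb window Fst stayed CK1750-only, and Bmp4 had peaks in both lists and a difference of 23.6 points. Ihh (106.55), Wnt4 (66.46) and Wnt9a (66.13) had no promoter peak in either line with UNC0638. Gdf15, a stress-induced member of the TGF-beta family, was Tnm2-only (906.71, percentile 91.5) and had promoter peaks in both lines with UNC0638. It had peaks in both lists with the 2.5 kb window too, with a difference of -27.1 points. CK1750 had more peaks than Tnm2 within 50 kb of Gdf15, 17 against 10. Wnt5b (51.91) was the other Tnm2-only gene.

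MAPK output genes were shared at 28 of 34 (82.4%, beside 43.9% of all protein-coding genes), with a median rank difference of 0.1 points. Dusp4, Dusp6, Spry2, Fosl2, Junb, Jun, Egr1 and Myc ranked above 94 in both lists. Phlda1 differed most among the shared, with 95.5 in CK1750 and 75.3 in Tnm2. Egfr, the receptor for EGF, was Tnm2-only with a peak of middling rank (139.13, percentile 49.7) at its start, and 7 Tnm2 peaks and 0 CK1750 peaks lay within 50 kb. With UNC0638 neither line had an Egfr promoter peak, and Tnm2 kept peaks in the gene. Fgfr1 (55.02) and Fgfr3 (73.52) were weak CK1750-only promoters.

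Cell cycle and p53 genes were shared at 19 of 22, beside 43.9% of all protein-coding genes. Bbc3 (65.99) was CK1750-only in the 1 kb window and marked in both lists, at ranks of 89.6 and 52.6, in the 2.5 kb window. Cdkn2a ranked 67.6 and 51.2, and Cdkn2b 80.9 and 51.1. Immune genes were shared at 11 of 36, with 2 CK1750-only (5.56%) and 4 Tnm2-only (11.1%), beside 3.73% and 2.74% of all protein-coding genes. The CK1750-only genes included the interferon regulator Irf7 (84.68). The Tnm2-only genes were Ccl20 (108.59), Tnf (72.98), Ifit1 (59.74) and H2-K1 (56.93). With the 2.5 kb window Irf7 had peaks in both lists, with a difference of -13.2 points. The class II genes H2-Aa, H2-Ab1, H2-Eb1 and Ciita had no promoter peak in either list.

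Few of the listed markers of other cell types had a promoter peak, while 49.6% of all protein-coding genes had none. Of 10 endothelial genes Flt1 alone had a promoter peak, in CK1750 (81.3), and Pecam1, Cdh5 and Kdr had none. Of 12 leukocyte genes Laptm5 alone had one, in Tnm2 (66.28), and Ptprc, Spi1 and Csf1r had none. Cd53, a leukocyte gene outside this list, had promoter peaks in both lines, at ranks of 7.3 in CK1750 and 90.9 in Tnm2. Of 14 neuroendocrine genes Ddc was Tnm2-only (151.46), and of 16 basal and squamous genes Lgals7 was Tnm2-only (67.6), with peaks in both lists and a rank 22.0 points higher in CK1750 under the 2.5 kb window. Among 39 genes of the Hox clusters 0 had a promoter peak, and 0 peaks of either list lay within 50 kb of any of them.

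**Figure D4:**
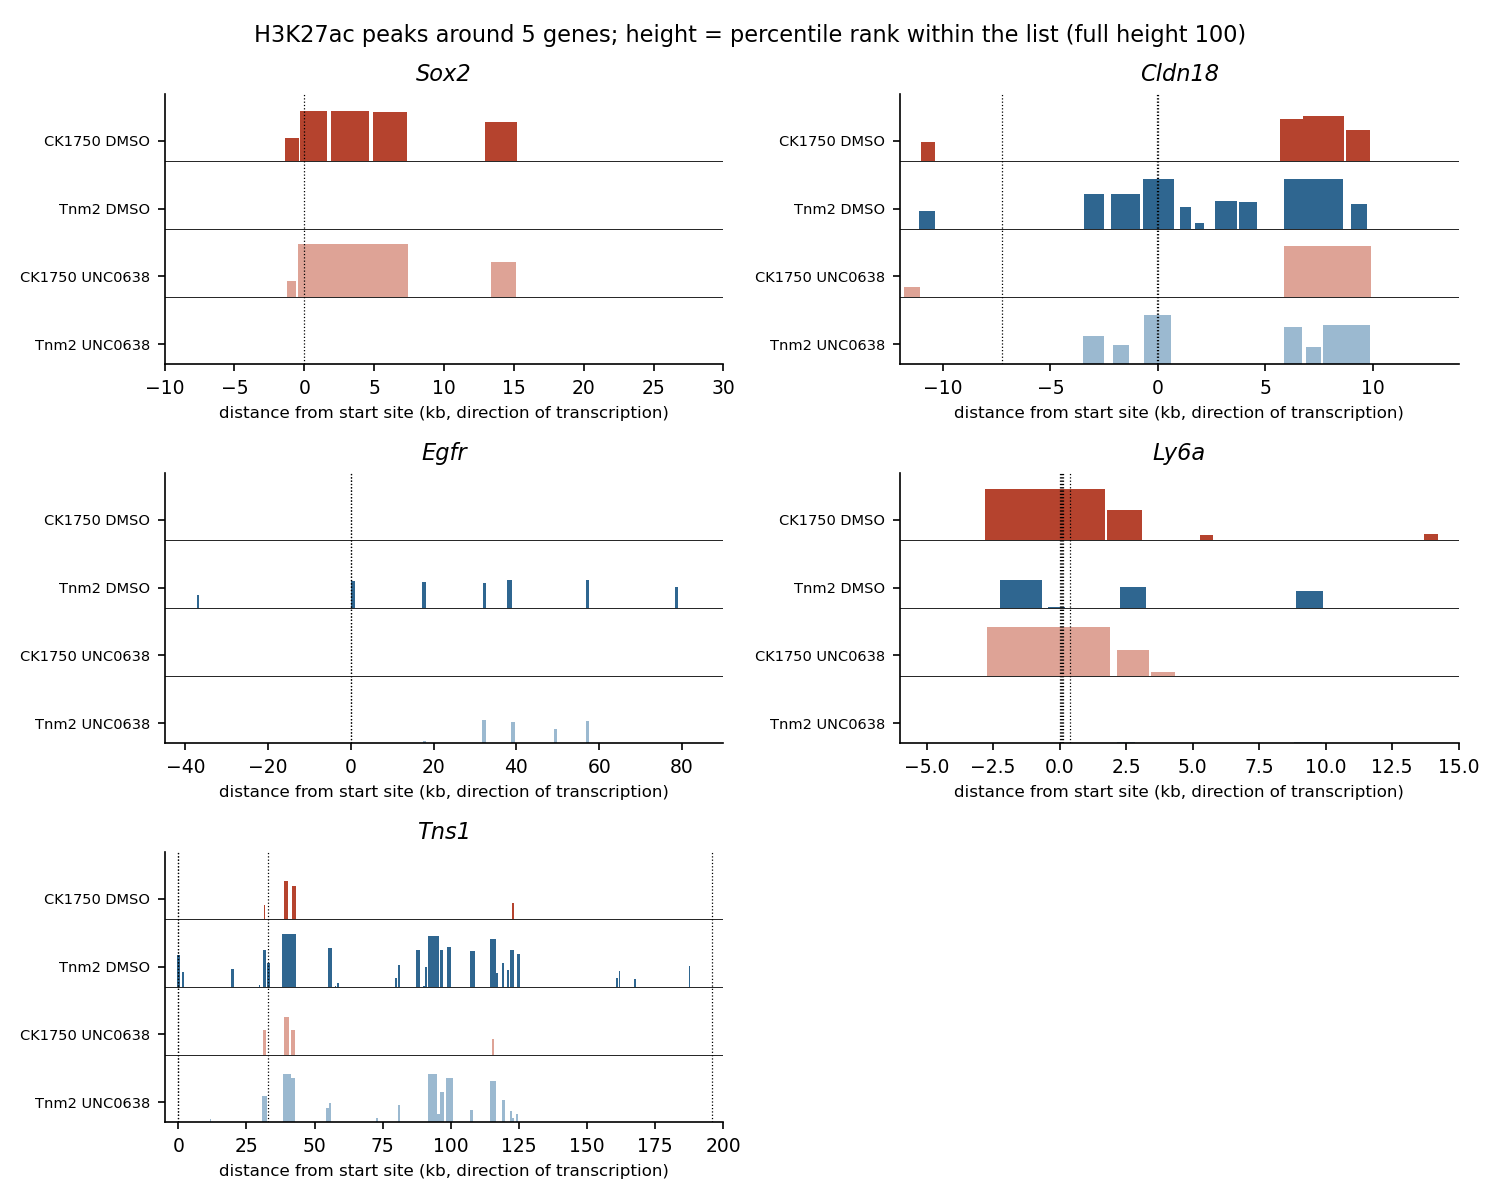
H3K27ac peaks around Sox2, Cldn18, Egfr, Ly6a and Tns1, with distance from a start site in the direction of transcription (kb) on the x axis and a row for each line with DMSO and with UNC0638. Boxes span a peak, their height is its percentile rank within its list (full height 100), and dotted lines are annotated start sites. Sox2 had boxes in the CK1750 rows alone, Egfr in the Tnm2 rows alone, and the Cldn18 start site in the Tnm2 rows alone.

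Distal peaks, those outside promoter windows, were joined into clusters wherever neighbours of either list lay within 10 kb. Of 2285 clusters with at least 3 peaks of a line, 2076 had peaks of both lines, 58 were CK1750-only (2.54%) and 151 were Tnm2-only (6.61%). When both lists were cut to the same length by score, the clusters were 67 and 93. All 12479 clusters and single distal peaks were also ranked by covered bases, whatever their number of peaks. Of these places 326 were in the top 500 of both lines (501 for CK1750 with ties). They were 65.1% of the CK1750 and 65.2% of the Tnm2 group. Places with many covered bases were seldom line-only: 8 of the CK1750 top group had no Tnm2 peak and 4 of the Tnm2 top group had no CK1750 peak.

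Clusters are named by the nearest start site, which lay up to 177 kb away. Of the 10 most covered CK1750-only clusters, 2 lay in Nrp2. The first covered 4.82 kb in 5 peaks (chr1:62705036-62722152) and the second 3.25 kb in 3 peaks (chr1:62763607-62774294), with 3 and 4 CK1750 peaks and 0 Tnm2 peaks with UNC0638. Others lay near Zfp503 (4.67 kb, 3 peaks), Hibadh (5.27 kb, 7 peaks), Psmd4, Ociad2, Mocs2, Arhgap10 and Snx7. The most covered, on the X chromosome nearest to Asmt, had near-identical copies elsewhere for 6 of its 7 peaks and no peak in either line with UNC0638, so the place of its reads is uncertain. Over all CK1750-only clusters, 47 of 58 had a CK1750 peak with UNC0638 and 9 a Tnm2 peak.

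The Tnm2-only clusters were led by Pdlim1, a PDZ and LIM domain protein of actin stress fibres (7.33 kb, 6 peaks, chr19:40250875-40269277), Nt5c3 (6.82 kb, 5 peaks), Zfp532, Grk5, a kinase of G protein-coupled receptors (5.39 kb, 6 peaks), Actr3 and Creb3l2. Pced1b, Foxp1, Smpd3 and Apbb2 followed, with 4.74 to 4.96 kb. A Tnm2 peak with UNC0638 was found in 104 of the 151 and a CK1750 peak in 58. The CK1750 UNC0638 list thus held peaks in a larger share of the other line's clusters than the Tnm2 UNC0638 list did, and it is the longer list of the pair.

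**Figure D5:**
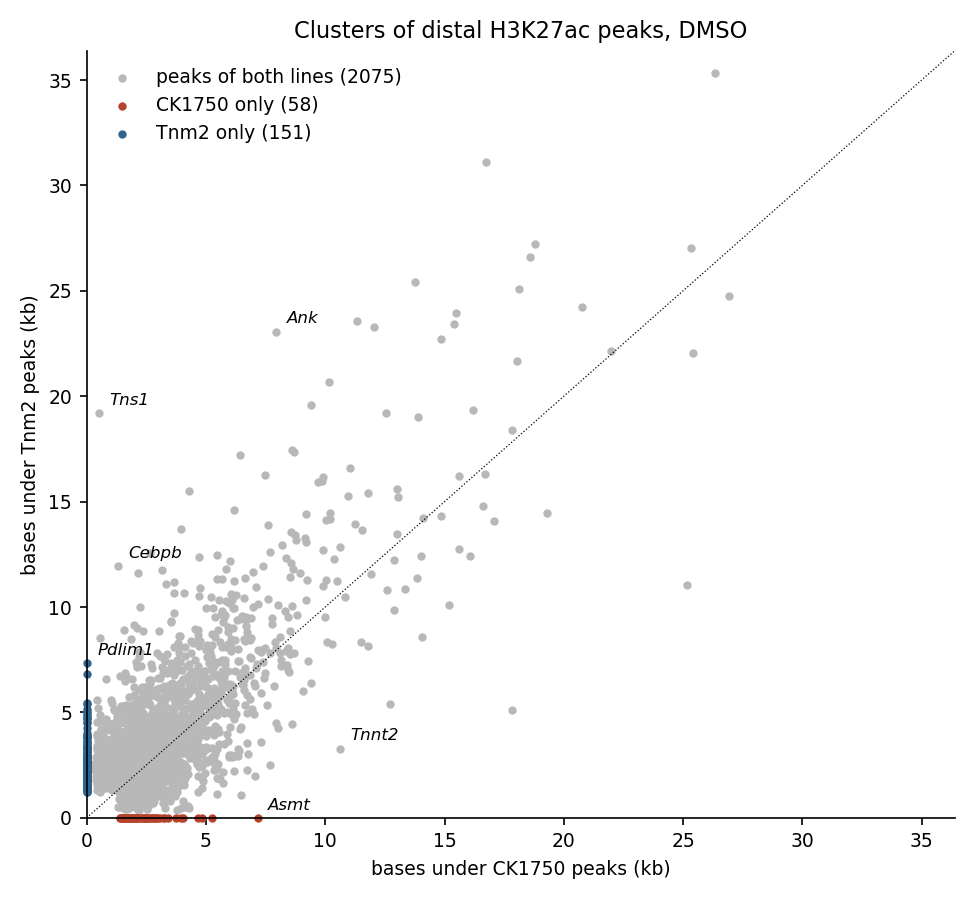
Bases under distal peaks of CK1750 (x axis, kb) and Tnm2 (y axis, kb) for each cluster with at least 3 peaks of a line on the main chromosomes, with the line of equality dotted. Grey points have peaks of both lines, red points lie on the x axis and are CK1750-only (58), and blue points lie on the y axis and are Tnm2-only (151), with Tns1 at 0.52 and 19.19 kb far from the line of equality.

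Clusters with peaks of both lines also differed widely in covered bases, and those named here were picked after their values were seen. The Tns1 cluster (chr1:73999152-74044818) held 15 Tnm2 peaks over 19.19 kb, the 23rd most covered in Tnm2, and 1 CK1750 peak of 0.52 kb. Around Ank, a pyrophosphate transporter, 28 Tnm2 peaks covered 23.06 kb and 9 CK1750 peaks covered 7.94 kb. Near Cebpb, the gene of a C/EBP factor, 16 Tnm2 peaks covered 11.93 kb against 2 CK1750 peaks and 1.32 kb. Near Bcl2l1, which encodes BCL-XL, the values were 17.21 kb in Tnm2 and 6.42 kb in CK1750. In the other direction, 6 CK1750 peaks covered 10.63 kb near Tnnt2 and Lad1 against 4 Tnm2 peaks and 3.29 kb. Around Gdf15 and its neighbours 7 CK1750 peaks covered 6.49 kb and 1 Tnm2 peak 1.1 kb, although the Gdf15 promoter peak was Tnm2-only. The 3 places nearest to Ezh2, Pdia4 and Gm21119, among the 10 with the largest excess in CK1750, had near-identical copies for most of their peaks.

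No run of 20 or more neighbouring peaks of a list was free of overlap with the other list, so runs of 12 or more were described, a minimum set after the values were seen. The longest in span was in CK1750, 16 peaks over 3210 kb (chr4:89427712-92641546) next to Cdkn2a and Cdkn2b, where the Tnm2 list had no peak for 3950 kb. The run held Dmrta1 and Elavl2, its median score was 77.19, and 10 of its peaks were found in CK1750 with UNC0638 and 0 in Tnm2 with UNC0638. Both lists had promoter peaks at Cdkn2a and Cdkn2b themselves. A further CK1750 run of 12 peaks lay at Zfp503 and Lrmda, and 11 of its peaks were found again with UNC0638. The span of this run also held 2 Tnm2 peaks. A run of 12 CK1750 peaks over the amylase genes had copies for 11 of them, and 1 of the 12 was found again in CK1750 with UNC0638.

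In Tnm2, runs of 17 and 14 peaks adjoined each other on chromosome 1, from chr1:72756146 to chr1:74076672, over Igfbp2 and Igfbp5, binding proteins of insulin-like growth factors, and Tns1. In Tnm2 with UNC0638, 9 of the 17 and 5 of the 14 were found again. Further Tnm2 runs held 14 peaks at Adamts9 and Prickle2, 15 peaks in a stretch of chromosome 6 with no protein-coding gene, and 12 peaks around Sox9, whose promoter had no peak in either list. Of these peaks 3, 6 and 4, in that order, were found again in Tnm2 with UNC0638. The span of the Sox9 run also held 1 CK1750 peak. A run of 12 on the X chromosome consisted of peaks with copies elsewhere. Its span also held 3 CK1750 peaks, and 6 of its peaks were found again in Tnm2 with UNC0638. Deletions or gains of DNA in the lines were not tested.

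Motif letters were counted in the central 500 bases of distal peaks, on both strands, to describe the sequences under line-only peaks. At least 1 of the 12 motifs was held by 4627 of 5651 CK1750-only (81.9%) and 7744 of 9192 Tnm2-only distal peaks (84.2%), and by 84.5% and 84.4% of shared distal peaks. The AP-1 letters TGANTCA were held by 22.2% of CK1750-only (interval 21.1 to 23.3%) and 22.0% of Tnm2-only peaks (21.2 to 22.9%), against 25.3% of shared peaks of each list and 23.9% of all distal peaks. The TEAD letters GGAATG stood at 27.5% and 27.2%, and the NKX2-1 letters CAAGTG at 27.8% and 29.6%. In this window the intervals of these motifs overlapped between the line-only sets.

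In the 500-base window the counting intervals of the line-only sets did not overlap for HNF4 and FOXA. The intervals count peaks within 1 pooled list a line, so whether they overlap is no test of a difference between the lines. The HNF4 letters CAAAGTCC were in 1.91% of CK1750-only peaks (1.59 to 2.3%) and 3.15% of Tnm2-only peaks (2.82 to 3.53%), with 2.67% over all distal peaks. The FOXA letters TGTTTAC were in 7.75% (7.08 to 8.48%) and 9.3% (8.72 to 9.91%), with 8.52% over all. The C/EBP letters were in 16.6% and 18.3%, with overlapping intervals. The window changed which motifs stood apart: in the central 300 bases HNF4, C/EBP and GATA had separate intervals and FOXA overlapped, and in the central 1000 bases HNF4, FOXA and AP-1 were separate, AP-1 with the higher share in CK1750-only peaks (interval 41.6 to 44.2%, against 38.8 to 40.8%). The RUNX letters TGTGGTT, the GATA letters AGATAA, the ETS letters CCGGAAG and the ZEB letters CAGGTA were in 12% and 12.1%, 21.3% and 22.7%, 2.73% and 2.92%, and 20.6% and 20.8%. The long motif of NFI (half-sites TTGGC and GCCAA) was in 4 peaks of each line-only set. Mean GC content was 49.2% and 48.8%. When only line-only distal peaks scored 100 or more were counted, the 500-base intervals of HNF4 and FOXA overlapped as well. For HNF4 they were 0.945 to 2.35% in CK1750 and 2.34 to 3.61% in Tnm2, and for FOXA 5.96 to 8.9% and 8.6 to 10.8%. A match is a description of letters and not of binding.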

How the data were processed

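H3K27ac was measured by chromatin immunoprecipitation and sequencing. Reads were aligned by the authors to mm10 with Bowtie2, and each deposited list holds the position and score (-10 log10 P) of peaks called with MACS 1.4.2 at a P cutoff of 1e-05, 1 merged list a group. How the libraries were merged, the replicates behind a list, the control used and the depths could not be settled from the sources used here. Samples were grouped by the labels.

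Peaks of the lists were compared by any overlap, and assigned to promoters within 1 kb of GENCODE M21 start sites, exons, introns or the rest. Distal peaks were joined into clusters within 10 kb. Percentile ranks were computed within a list. A peak had a near-identical copy when minimap2 2.31 placed at least 80% of it elsewhere in GRCm38 at 95% identity or more. Sequences came from RefSeq. Python 3.11.15, numpy 2.4.6, pandas 2.3.3, pysam 0.24.0 and matplotlib 3.10.9 were used, and the code was tested on simulated lists.

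Named with values were listed genes with a promoter peak in 1 list only or ranks at least 50 points apart, up to 8 a list, and outside the lists the 10 genes a line of highest score with no peak of the other line in the gene or 10 kb around it, the 10 largest rank differences in each direction, the 10 most covered line-only clusters and the 10 highest line-only peaks with no peak of the other list within 1 kb. Some listed genes are counted but not reported here by name. Other genes, shared clusters and runs were named after their values were seen. The comparison and all gene lists were chosen with earlier results of these data known. Alternatives were other windows, overlaps, score minimums and cluster distances, lists of equal length, and removal of peaks with copies.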

Additional observations from a re-analysis of the deposited data

Results flagged for a closer look

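The order of the lines by number of peaks differed between the treatments. With DMSO the CK1750 list held 27367 peaks and the Tnm2 list 30641, a difference of -3274. With UNC0638 the lists held 24601 and 18794, a difference of 5807 in the other direction. Covered bases gave the same orders, with 28.5 Mb in CK1750 and 31.8 Mb in Tnm2 with DMSO, and 31.6 and 22.9 Mb with UNC0638. Each number comes from 1 pooled list, and the difference was not tested.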

How the results depend on the processing

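No paired analysis was possible because each list pools the libraries of its group and the results come from no test, and for the same reason no replicate could be left out. Line-only peaks were 3290 in CK1750 and 5322 in Tnm2 with a score minimum of 100 in both lists, 1766 and 3265 when only counted peaks had to reach 100, and 11348 in CK1750 with a reciprocal overlap of 50%. Genes with a promoter peak in 1 line only and the same status with UNC0638 were 460 and 130, and listed genes 11 and 6. The 116 genes ranked 50 points apart were 183 by peak width and 74 when ranked among promoter peaks alone. Line-only clusters were 6 and 21 with at least 5 peaks and 16 and 60 with the score minimum, and 93 in Tnm2 with lists of equal length. Distal line-only peaks with a motif were 968 and 2306 at a score of 100 or more. Line-only peaks found again in the same line with UNC0638 were 55.8% and 38.5% within 1 kb, and 75.1% and 50.4% at a score of 100 or more. With a promoter window of 2.5 kb the rank difference of Cgn was -4.8, of Irf7 -13.2 and of Lgals7 22.0 points, each against the line that alone had the peak in the 1 kb window. The cause was not tested, except that score minimums leave fewer peaks. Of 42 named listed genes 32 kept their status with the 2.5 kb window, 20 with the score minimum, 39 with lists of equal length and 41 without copies. With the score minimum 19 of the 42 had no promoter peak left in either list.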

Other observations

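On the Y chromosome the CK1750 list held 15 peaks, 12 of them without a Tnm2 peak, and the Tnm2 list held 3, while none of the Y-linked genes examined had a promoter peak. Near-identical copies elsewhere in the genome were found for 415 of 7221 CK1750-only peaks (5.75%) and 109 of 10692 Tnm2-only peaks (1.02%).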
